A study of Mus musculus with 2 samples.

Results

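Astrocytes of the mouse dentate gyrus were chosen by the measured UMI counts of 13 marker genes in a single-cell series. Of 21370 cells of good quality, 1819 passed: 1000 of 11414 cells of the control library and 819 of 9956 cells of the Setdb1_cKO library. A cell of good quality held at least 1000 UMIs (unique molecular identifiers, each standing for 1 captured transcript), at least 500 detected genes and a mitochondrial share of no more than 10%. The gate asked for at least 2 UMIs of Slc1a3, the glutamate transporter GLAST of radial glia and astrocytes. It also asked for at least 4 UMIs summed over Aqp4, Aldh1l1, Slc4a4 and Bcan, 4 astrocyte genes, and for more of these than of Hopx, Gas1, Gdf10 and Frzb, 4 radial glia genes. Cells with any UMI of Pdgfra, Egfr, Eomes or C1qa, genes of oligodendrocyte progenitors, activated progenitors, intermediate progenitors and microglia, were left out. Since these genes chose the cells, their values are given as a description only, and no result rests on them.

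The series holds 2 libraries, 1 from wild type mice (control) and 1 from mice labelled Setdb1_cKO, a conditional knockout of the histone H3 lysine 9 methyltransferase SETDB1. Both come from dentate gyri collected at postnatal day 5, dissociated enzymatically and profiled with 10x Genomics 3' version 3 chemistry. The sources used here do not give the Cre driver, the deleted exons or how many animals went into each library. With 1 library per genotype no test is possible: all ratios below set the Setdb1_cKO library over the control library, and their 95% intervals cover counting error only.

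Astrocytes clear glutamate and GABA from synapses, buffer potassium and water, supply lipids and lactate to neurons, and secrete matrix and synapse-forming proteins. In the dentate gyrus they arise from radial glia that also give rise to granule neurons, and the first postnatal week is a time in which astrocytes still divide and mature. SETDB1 places trimethylation on histone H3 lysine 9 and so keeps endogenous retroviruses, germline genes and clustered gene families silent in many tissues.

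The gated cells took a similar share of both libraries, 8.76% of control cells (95% exact Clopper-Pearson interval 8.25 to 9.29) and 8.23% of Setdb1_cKO cells (7.69 to 8.78), a share ratio of 0.939 (0.855 to 1.03). The ratio moved with the gate: it was 0.750 where the astrocyte sum had to exceed the radial glia sum more than 2 times, 0.779 where the gate was set on cells thinned to 2000 UMIs, and 1.39 (1.23 to 1.56), the other way, without cells holding at least 2 UMIs of oligodendrocyte progenitor markers. The astrocyte sum had a median of 20 UMIs per cell in both libraries, while the radial glia sum had a median of 3 in control and 7 in Setdb1_cKO cells. Just inside the limit, 33 control and 20 Setdb1_cKO cells held exactly 4 astrocyte UMIs, and just outside it 29 and 21 cells held 3. A further 31 control and 49 Setdb1_cKO cells had equal sums and stayed outside. The Egfr condition removed the most cells, 705 in control and 369 in Setdb1_cKO.

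The label was checked on astrocyte genes that the gate did not use. Slc1a2, the main forebrain glutamate transporter GLT-1, stood at 2842 UMIs per 1000000 UMIs of the gated cells (CPM) in control and 2112 in Setdb1_cKO astrocytes, against 1877 and 1921 in radial glia and 44.1 and 38.6 in microglia gated from the same libraries. Gja1, which encodes the main astrocyte connexin of gap junctions, stood at 394 and 298 CPM, against 184 and 216 in radial glia and 5.60 and 3.05 in microglia. Aldoc, a glycolytic enzyme of astrocytes, reached 995 and 1008 CPM but was no lower in radial glia, at 1220 and 1175. Gjb6, the connexin of mature astrocytes, was close to absent, with 8 and 16 UMIs in all gated cells. Slc7a10, a transporter of serine and glycine, stood at 59.4 and 25.9 CPM against 20.3 and 21.0 in radial glia, and the neurotensin receptor Ntsr2 at 87.3 and 80.3 against 57.9 and 74.7. These genes set the gated cells apart from microglia in both libraries. Against radial glia the gap was small in the Setdb1_cKO library for Slc1a2, Slc7a10 and Ntsr2, and Aldoc showed none in either library.

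Depth, sex and other cell types differed between the libraries. Gated cells held 7275287 UMIs in control and 7446241 in Setdb1_cKO, with medians of 6822 and 8284 per cell. Xist and the Y-linked genes Ddx3y and Eif2s3y showed that the libraries differed in sex: Xist had 2 UMIs in control and 8315 in Setdb1_cKO astrocytes, Ddx3y had 445 and 0. Sex and genotype therefore cannot be told apart. The 436 X-linked genes measured had a median log2 ratio of 0.10 and the 12320 autosomal genes 0.05, values that do not separate sex from genotype. The libraries shared 68 cell barcodes among those deposited, 42 among cells of good quality and 1 among gated cells. Markers of ependymal cells (4 genes, all measured) summed to 50.9 CPM in control and 146 in Setdb1_cKO astrocytes, with more than 10 such UMIs in 3 and 21 cells. The 6 neuronal markers summed to 1078 and 1288 CPM, with more than 10 UMIs in 10.1% and 13.4% of cells. Mural cell markers reached at least 2 UMIs in 106 and 240 cells. Markers of oligodendrocyte progenitors (Olig1, Olig2, Sox10 and Cspg4) summed to 280 and 96.4 CPM, with at least 2 UMIs in 459 control and 165 Setdb1_cKO cells. Values without the ependymal, neuronal or oligodendrocyte progenitor marked cells are given below where a 1.5-fold call of a named gene is lost; the part of the mural markers was not tested.

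Of the genes outside the gate, 12780 had at least 30 UMIs over both libraries and are called measured. Their median log2 ratio was 0.05, and 83.9% lay within 1.5-fold of equal levels. At least 2-fold higher in Setdb1_cKO astrocytes, with an interval that left out 1, stood 670 genes (5.24% of those measured), and 155 (1.21%) were lower by the same rule. At 1.5-fold the shares were 9.35% and 3.98%, which is the background for every count of list members below. A gene low in 1 library can be measured only through its level in the other, which limits every such count. Of the 670 higher genes 591 were protein coding and 45 were long intergenic RNAs.

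**Figure D1:**
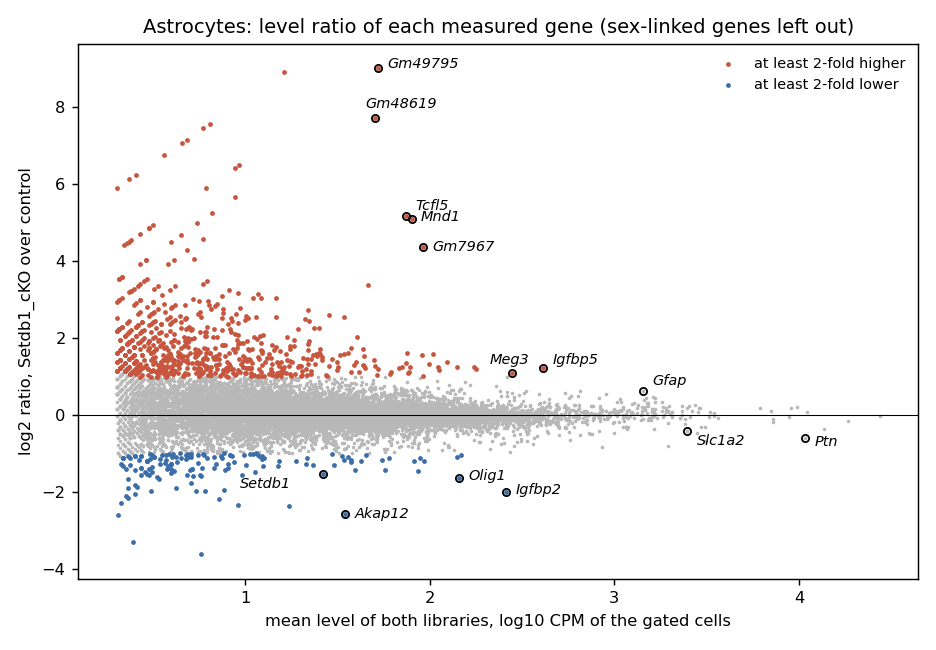
Level ratio of each measured gene in astrocytes (y axis, log2 ratio of Setdb1_cKO over control with a pseudocount of 0.5 UMI) against its mean level in both libraries (x axis, log10 CPM). Each dot is a gene, red where at least 2-fold higher and blue where at least 2-fold lower with an interval that leaves out 1, and circled genes are named in the text. Igfbp2 and Olig1 lie far below the other genes of their level, and a small group around Mnd1 and Tcfl5 lies far above.

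Setdb1 transcripts were fewer but not absent in Setdb1_cKO astrocytes. The gene (chromosome 3, 95323525 to 95357202, minus strand, GRCm38) had 287 UMIs in control and 100 in Setdb1_cKO cells, or 39.4 and 13.4 CPM, a ratio of 0.340 (0.268 to 0.429). After thinning to 2000 UMIs per cell, 7.94% of 957 control and 2.71% of 812 Setdb1_cKO astrocytes held a Setdb1 UMI (24.5% and 10.9% before thinning). Thinned microglia held one in 10% and 12.4%, with no lower share in the Setdb1_cKO library. Since the deleted exons are not known here and 3' reads can lie outside them, the share of recombined cells cannot be read from these values.

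The genes furthest above equal levels were germline genes and long intergenic RNAs that control astrocytes hardly held. Mnd1, a partner of the meiotic recombinase, had 33 UMIs in control and 1156 in Setdb1_cKO astrocytes, or 4.54 and 155 CPM, a ratio of 34.2 (24.2 to 49.96). Tcfl5, a basic helix-loop-helix factor of spermatocytes, had 29 and 1081 UMIs, a ratio of 36.4 (25.2 to 54.6). Among the intergenic RNAs, Gm49795 had 1 and 784 UMIs (ratio 766, 137 to 30294) and Gm48619 had 3 and 747 (243, 82.9 to 1182). Gm11884 had 0 and 243 UMIs, at least 79.1-fold higher when control is set to the floor of 3 UMIs. Gm7967 had 62 and 1304 UMIs, a ratio of 20.5 (15.9 to 27.0), and 3222401L13Rik had 59 and 626, a ratio of 10.4 (7.93 to 13.8).

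These 7 transcripts were spread over many cells. After thinning, 24.3% of Setdb1_cKO astrocytes held Mnd1 and 27.7% held Tcfl5, against 0.522% and 0.836% of control astrocytes. In Setdb1_cKO microglia, which serve as a measure of free RNA, the shares were 1.78% and 2.22%. The median depth was 8284 UMIs in those astrocytes and 7475 in those microglia. Before thinning, 64.5% and 66.9% of Setdb1_cKO astrocytes had a UMI of Mnd1 and of Tcfl5. Counted over all 7 genes in thinned cells, 26.2% of Setdb1_cKO astrocytes held none, 34.2% held 1, 195 of 812 held 2 and 15.5% held 3 or more. In control astrocytes 95.2% held none and the others held 1. Among thinned microglia, 11.1% held 1 in the Setdb1_cKO library and 1.43% in control. The 10 cells with most Mnd1 UMIs gave 7.53% of them.

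To show what the germline genes have before their starts, the 250 bases upstream are given for 4 of them, from RefSeq windows on GRCm38.p6. Each is written 5' to 3' on the gene's own strand, with capitals for CACGTG and for TCCCGC or its reverse complement GCGGGA, 2 motifs searched on both strands that can share a base at their ends. The windows are chr3:84155787-84156036 for Mnd1 (minus strand), chr2:180642692-180642941 for Tcfl5 (minus), chr13:112652311-112652560 for Ddx4 (minus) and chr10:88459337-88459586 for Sycp3 (plus).
Mnd1: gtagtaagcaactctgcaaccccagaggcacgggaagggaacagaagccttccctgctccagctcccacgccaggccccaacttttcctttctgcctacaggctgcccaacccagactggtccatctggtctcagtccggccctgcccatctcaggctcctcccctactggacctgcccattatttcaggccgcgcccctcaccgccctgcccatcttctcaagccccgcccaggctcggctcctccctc
Tcfl5: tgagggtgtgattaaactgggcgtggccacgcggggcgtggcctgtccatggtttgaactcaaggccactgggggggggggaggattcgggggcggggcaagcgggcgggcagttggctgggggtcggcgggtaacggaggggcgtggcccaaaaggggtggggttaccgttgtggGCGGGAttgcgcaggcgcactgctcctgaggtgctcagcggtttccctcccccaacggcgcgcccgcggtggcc
Ddx4: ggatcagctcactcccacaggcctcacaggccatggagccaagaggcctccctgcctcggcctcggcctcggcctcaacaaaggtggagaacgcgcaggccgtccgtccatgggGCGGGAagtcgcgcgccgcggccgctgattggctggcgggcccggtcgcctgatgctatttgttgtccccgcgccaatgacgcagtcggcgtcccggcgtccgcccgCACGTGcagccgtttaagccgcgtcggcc
Sycp3: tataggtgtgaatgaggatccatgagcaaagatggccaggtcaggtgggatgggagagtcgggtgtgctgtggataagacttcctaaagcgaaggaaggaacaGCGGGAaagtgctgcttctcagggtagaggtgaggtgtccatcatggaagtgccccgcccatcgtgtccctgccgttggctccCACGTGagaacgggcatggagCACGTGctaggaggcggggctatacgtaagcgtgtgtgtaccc
The Mnd1 window holds neither motif and 8 CpG dinucleotides, whereas the Tcfl5 window has 22 CpG and 1 GCGGGA, the Ddx4 window 31 CpG and 1 of each motif, and the Sycp3 window 12 CpG, 2 CACGTG and 1 GCGGGA. Over 32841 windows of the same length, 6.02% held CACGTG and 16.9% held TCCCGC or GCGGGA, and the median was 6 CpG. A match describes the letters only.

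Most measured members of a wider germline list were higher too. Of 50 germline and meiosis genes, 14 were measured, and 12 of these were at least 1.5-fold higher and none lower, with a median log2 ratio of 2.54. The background is 9.35%, but nothing is read from the count, since members near 0 in control were measured only through their level in the Setdb1_cKO library. Ddx4, the RNA helicase of germ cells, had 1 UMI in control and 91 in Setdb1_cKO astrocytes (ratio 88.9, 15.6 to 3550). Sycp3, of the synaptonemal complex, had 2 and 65 (31.8, 8.44 to 268), and the meiotic recombinase Dmc1 had 3 and 34 (11.1, 3.48 to 56.3). Zcwpw1, a reader of histone marks in meiosis, had 48 and 202 (4.11, 2.99 to 5.76). Meioc, a regulator of meiotic entry, had 0 and 72 UMIs, but 55 of the 72 came from 10 cells. Tdrkh and Nanos3 were measured and did not pass, with ratios of 1.01 (0.853 to 1.19) and 0.720 (0.334 to 1.51). Of the 12 higher genes 11 have an upstream window; 5 of the 11 hold CACGTG and 7 hold TCCCGC or GCGGGA in at least 1 window.

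Partners of SETDB1 and repeat-silencing factors were mostly level. Of 34 measured genes of histone H3 lysine 9 methylation, 3 were at least 1.5-fold higher and none lower. Atf7ip, which encodes the protein that binds and stabilises SETDB1, had 504 UMIs in control and 1339 in Setdb1_cKO astrocytes, or 69.3 and 180 CPM (ratio 2.60, 2.34 to 2.88). Samd1, a CpG island binding protein, went from 11.8 to 34.6 CPM (2.93, 2.29 to 3.79), and Tasor, of the HUSH silencing complex, from 58.0 to 90.6 CPM (1.56, 1.38 to 1.77). Trim28, the corepressor that brings SETDB1 to zinc finger proteins, had a ratio of 0.921 (0.802 to 1.06).

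Zinc finger genes named Zfp were also mostly level: of 288 measured, 25 passed 1.5-fold upwards and 3 downwards, and the median log2 ratio was 0.05. A few stood far above the others. Zfp992 had 2 UMIs in control and 80 in Setdb1_cKO astrocytes (ratio 39.1, 10.5 to 328), Zfp982 had 2 and 41 (20.03, 5.20 to 171), and Zfp991 had 6 and 41 (6.68, 2.82 to 19.2). These 3 genes and Zfp984, with 13 and 51 UMIs (3.83, 2.05 to 7.68), lie within chromosome 4 between 146449023 and 147809788. Zfp809, which recognises a retroviral primer binding site, had 64 and 141 UMIs (2.15, 1.59 to 2.94). Zfp genes were named here for their values, chosen after these had been seen.

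Gamma protocadherins, cell adhesion proteins made from alternative first exons of 1 gene cluster, were higher in sum. Over all 18 variable members, measured or not, the sum went from 84.4 to 166 CPM (1.97, 1.78 to 2.17). Of 16 measured members 9 were at least 1.5-fold higher (background 9.35%) and none lower, with a median log2 ratio of 0.90. Nothing is read from this count, since members low in control, such as Pcdhgb5, were measured only through their Setdb1_cKO level. Pcdhga12 had 89 and 271 UMIs (2.98, 2.33 to 3.82) and Pcdhgb5 had 22 and 127 (5.64, 3.57 to 9.32). The C-type members differed from each other: Pcdhgc5 had 30 and 114 UMIs (3.71, 2.46 to 5.75), while Pcdhgc3, the most abundant, had 292 and 164 (0.549, 0.450 to 0.667). Of 9 measured beta protocadherins, 0 passed 1.5-fold. Since the gamma genes share their last exons, how 3' reads were split among them is uncertain.

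Of 27 measured imprinted genes, 7 were at least 1.5-fold higher and 2 lower. Meg3, a maternally expressed long RNA, had 1290 UMIs in control and 2820 in Setdb1_cKO astrocytes, or 177 and 379 CPM (ratio 2.14, 1.999 to 2.28). Rian, from the same imprinted domain, had 84 and 236 UMIs (2.75, 2.13 to 3.56). Both differed more in microglia, where Meg3 stood at 81.2 and 446 CPM (5.50, 4.52 to 6.73) and Rian at 4.20 and 30.5 (7.26, 3.15 to 20.6). In the astrocytes with fewer than 3 UMIs of other cell types, the Meg3 ratio was 1.28; the part of RNA from other cells was not tested. Nnat went from 262 to 399 CPM (1.52, 1.44 to 1.61) and Mest from 32.0 to 20.5 CPM (0.642, 0.520 to 0.790). The Nnat ratio was 1.21 without oligodendrocyte progenitor marked cells and 1.28 without ependymal marked cells, and the Mest ratio was 0.735 without the former.

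Among the genes furthest below equal levels were a binding protein for insulin-like growth factors, a kinase scaffold and an oligodendrocyte lineage factor. Igfbp2, which binds insulin-like growth factors (chromosome 1, 72824503 to 72852474, plus strand), had 3020 UMIs in control and 766 in Setdb1_cKO astrocytes, or 415 and 103 CPM, a ratio of 0.248 (0.229 to 0.268). Akap12, a scaffold of protein kinase A (chromosome 10, 4266380 to 4359470, plus strand), had 436 and 74 UMIs (0.166, 0.128 to 0.213). Olig1, a transcription factor of the oligodendrocyte lineage, had 1592 and 525 UMIs, or 219 and 70.5 CPM (0.322, 0.291 to 0.356). Emid1 had 915 and 343 UMIs (0.366, 0.323 to 0.415), Gsg1l, an auxiliary subunit of AMPA receptors, had 210 and 41 (0.191, 0.133 to 0.268), and Nebl had 417 and 158 (0.370, 0.306 to 0.446). Ttc9b, Pla2g3, Cidea and Ptchd4 were lower as well, with ratios of 0.369, 0.432, 0.403 and 0.402.

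Igfbp2 and Olig1 were detected in fewer Setdb1_cKO astrocytes. After thinning, 41.4% of control and 10.6% of Setdb1_cKO astrocytes held Igfbp2, and 32.8% and 12.1% held Olig1. Before thinning, the shares were 62.5% and 29.2% for Igfbp2 and 61.2% and 30.8% for Olig1. Microglia held Igfbp2 in 0.476% of thinned control and 3.11% of thinned Setdb1_cKO cells. In radial glia Igfbp2 was far lower to begin with, at 20.5 and 13.5 CPM, a ratio of 0.657 (0.489 to 0.878). Oligodendrocyte progenitors, gated from the same libraries, held Igfbp2 at 191 and 150 CPM, Akap12 at 77.6 and 69.6 and Emid1 at 124 and 72.2.

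**Figure D2:**
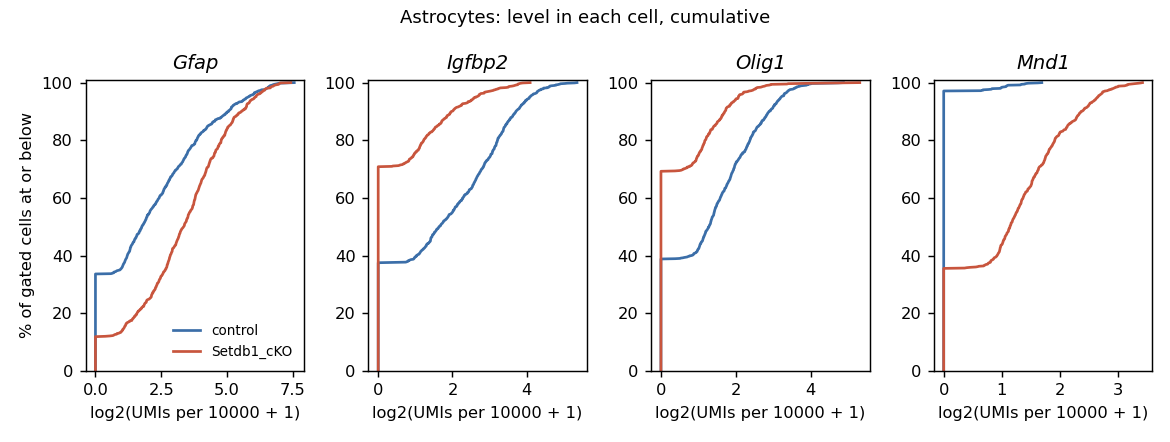
Level of Gfap, Igfbp2, Olig1 and Mnd1 in each gated cell, as cumulative curves (x axis, log2 of UMIs per 10000 plus 1; y axis, percent of cells at or below that level), blue for 1000 control and red for 819 Setdb1_cKO astrocytes. The height at 0 is the share of cells without a UMI, 37.5% and 70.8% for Igfbp2. Gfap and Mnd1 curves of Setdb1_cKO cells lie to the right of control, and Igfbp2 and Olig1 curves to the left.

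Astrocytes with oligodendrocyte progenitor markers were a different part of each library. Cells with at least 2 UMIs of the 4 markers numbered 459 in control and 165 in Setdb1_cKO, with median depths of 7610 and 9707 UMIs. In control, these cells held Igfbp2 at 575 CPM and Gfap at 656, while the other 541 held Igfbp2 at 247 and Gfap at 1613. Among cells with 0 or 1 marker UMI, Igfbp2 stood at 247 CPM in control and 75.1 in Setdb1_cKO, a ratio of 0.304 (0.270 to 0.342). Akap12 stood at 27.0 and 8.64 CPM there, a ratio of 0.319 (0.222 to 0.455), and Emid1 at 127 and 49.7 (0.392, 0.337 to 0.456). Since Olig1 is itself lower, the classes hold different shares of each library at different depths, and these values are a description only. In cells with 2 or more marker UMIs the ratios were 0.333 (0.296 to 0.374) for Igfbp2, 0.154 (0.0985 to 0.232) for Akap12 and 0.275 (0.207 to 0.360) for Emid1. Pla2g3 differed between the classes, at 0.759 (0.635 to 0.904) in these cells and 0.330 (0.281 to 0.386) in the others. The Mnd1 and Setdb1 ratios were similar in both classes, at 26.9 (16.4 to 47.1) and 36.7 (22.5 to 64.4) for Mnd1 and at 0.348 and 0.345 for Setdb1.

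**Figure D3:**
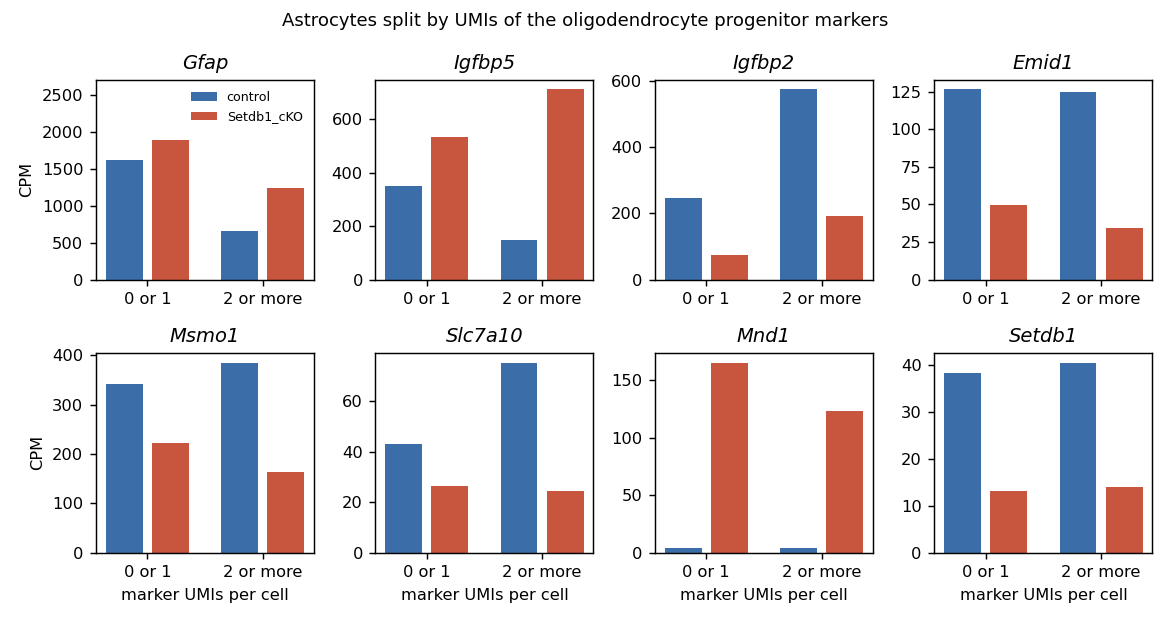
Level of 8 genes in gated astrocytes split by their UMIs of Olig1, Olig2, Sox10 and Cspg4 (x axis, 0 or 1 against 2 or more), in CPM of each class (y axis from 0), blue for control and red for Setdb1_cKO. Igfbp2, Emid1 and Setdb1 are lower in both Setdb1_cKO classes, whereas the Gfap gap is wide in cells with 2 or more marker UMIs (656 against 1242 CPM) and narrow in the others (1613 against 1880).

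Gfap, the intermediate filament of astrocytes and radial glia, had 8169 UMIs in control and 12866 in Setdb1_cKO astrocytes, or 1123 and 1728 CPM (ratio 1.54, 1.497 to 1.58). Gfap UMIs were present in 47.3% of thinned control and 71.2% of thinned Setdb1_cKO cells, against 0.476% and 2.22% of microglia, and in 66.4% and 88.2% before thinning. The 1.5-fold mark was not reached without the cells carrying oligodendrocyte progenitor markers, where the ratio was 1.17 (1.13 to 1.204). Of 12 measured filament genes only Gfap and Synm passed 1.5-fold, Synm with 44 and 129 UMIs (2.86, 2.02 to 4.13). Vim had a ratio of 1.17 (1.13 to 1.22) and Nes of 1.05 (0.910 to 1.22).

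Several genes of reactive astrocytes, which respond to injury and inflammation, were higher but low in level. Of 22 measured, 13 passed 1.5-fold upwards and 2 downwards, with a median log2 ratio of 0.71. Nothing is read from this count, since members low in control, such as Gbp2 and Cxcl10, were measured only through their Setdb1_cKO level. C4b, a complement component, had 69 and 255 UMIs (3.61, 2.76 to 4.78), Serpina3n, a secreted protease inhibitor, had 92 and 273 (2.90, 2.28 to 3.71), and S100a10 went from 56.6 to 141 CPM (2.49, 2.22 to 2.80). Gbp2, a guanylate-binding protein induced by interferon, had 12 and 74 UMIs (6.03, 3.25 to 12.2). The chemokine gene Cxcl10 had 12 and 93, and 69 of the 93 came from 10 cells. Lower were Timp1, with 30 and 10 UMIs, and Sphk1, with 30 and 7. Without oligodendrocyte progenitor marked cells 20 members were measured, 11 higher and 0 lower. Timp1 and Sphk1 lost their call there, with ratios of 0.304 and 0.296. Ependymal markers moved with part of this list: without the cells that held at least 2 UMIs of them, Tm4sf1 went from a ratio of 2.67 to 0.782 and Cp from 1.66 to 0.570, and the counts became 11 higher and 5 lower. The Cp ratio was 1.45 without cells holding more than 10 neuronal marker UMIs.

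Cytokine signalling genes moved unevenly. Of 15 measured genes of the gp130 and STAT3 pathway, 5 were at least 1.5-fold higher and none lower. The feedback inhibitor Socs3 had 166 UMIs in control and 488 in Setdb1_cKO astrocytes, or 22.8 and 65.5 CPM (2.87, 2.40 to 3.45), and Socs1 had 25 and 55 (2.15, 1.32 to 3.60). Among receptors, the oncostatin M receptor Osmr had 15 and 35 UMIs (2.28, 1.21 to 4.49), while Il6st, which encodes gp130 itself, was level at 0.972 (0.861 to 1.10). Crlf2, the receptor of thymic stromal lymphopoietin, had 42 and 284 UMIs (6.61, 4.77 to 9.37), and Csf2ra, a receptor subunit for GM-CSF, had 58 and 363 (6.11, 4.62 to 8.21). Both were also detected in microglia, in 13.8% and 13.3% of thinned control cells. Microglial markers summed to 2.75 and 6.18 CPM in the astrocyte gate, which itself removed cells with C1qa, and their part in the result was not tested.

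Of 16 measured interferon response genes, 7 were at least 1.5-fold higher and none lower, and the median log2 ratio was 0.56. Nothing is read from this count either, since members such as Isg15 and Bst2 were measured only through their Setdb1_cKO level. Isg15, a ubiquitin-like protein, had 24 and 107 UMIs (4.36, 2.78 to 7.09), and 53 of the 107 came from 10 cells. Bst2, which tethers viruses to the cell surface, had 20 and 61 UMIs (2.98, 1.77 to 5.21). Stat2, a transducer of interferon signals, had the highest level of the 7, at 21.3 and 32.0 CPM. Without oligodendrocyte progenitor marked cells the Stat2 ratio was 1.21, and 6 of 15 measured members were higher. In the 127 control and 110 Setdb1_cKO cells with fewer than 3 UMIs of other cell types, the median log2 ratio of the list was -0.65 and that of Stat2 was -0.91. Among 12 measured genes of MHC class I, 3 were at least 1.5-fold higher and none lower. B2m, the light chain, went from 41.0 to 66.7 CPM (1.63, 1.41 to 1.89). The heavy chain gene H2-K1 went the other way, from 218 to 166 UMIs (0.744, 0.604 to 0.915), short of 1.5-fold.

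Genes of astrocyte work were lower in part. Of 16 measured genes of glutamate and GABA handling, 3 were at least 1.5-fold lower (background 3.98%) and 2 higher; the median log2 ratio was -0.27. The GABA transporter Slc6a11 had 1388 UMIs in control and 667 in Setdb1_cKO astrocytes (0.470, 0.427 to 0.515). Slc7a10 had 432 and 193 (0.437, 0.366 to 0.518), and the glutamate receptor Grm5 had 1186 and 677 (0.558, 0.507 to 0.613). Without oligodendrocyte progenitor marked cells the Grm5 ratio was 0.680. Slc1a2 had a ratio of 0.743 (0.728 to 0.759) and Glul, the glutamine synthetase, of 0.798 (0.764 to 0.835), both short of 1.5-fold. Slc38a1, a glutamine transporter, was higher with 356 and 788 UMIs (2.16, 1.91 to 2.46).

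Ion, water and gap junction genes changed little, with 0 of 16 lower and 1 higher past 1.5-fold. Kcnj10, the potassium channel Kir4.1, had a ratio of 0.772 (0.695 to 0.857) and Gja1 of 0.755 (0.714 to 0.798). Of 44 measured genes of mature astrocytes, 5 were lower and 2 higher past 1.5-fold. The counts were 3 lower and 3 higher without oligodendrocyte progenitor marked cells, and 10 lower and 1 higher without cells with Mki67 or Top2a. Ednrb, an endothelin receptor, went from 704 to 446 CPM (0.634, 0.606 to 0.662), and Fgfr3, a fibroblast growth factor receptor, from 117 to 72.3 CPM (0.619, 0.555 to 0.691). In the other direction, the calcium-binding protein S100b went from 364 to 588 UMIs (1.58, 1.38 to 1.80). Fgfr3 was at 0.672 without oligodendrocyte progenitor marked cells, and S100b at 1.398 without ependymal marked cells. Aldoc was level at 1.01 (0.981 to 1.05). None of 24 measured genes of glucose, lactate and glycogen metabolism passed 1.5-fold.

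Secreted matrix and synapse-forming genes included some of the most abundant lower genes. Of 25 measured, 5 were at least 1.5-fold lower and 1 higher, and their sum went from 12479 to 8623 CPM. Ncan, the proteoglycan neurocan, had 18019 and 10532 UMIs, or 2477 and 1414 CPM (0.571, 0.557 to 0.585). Ptprz1, a receptor phosphatase, went from 3841 to 2416 CPM (0.629, 0.617 to 0.641) and Timp4, a protease inhibitor, from 198 to 96.4 CPM (0.488, 0.445 to 0.534). Without oligodendrocyte progenitor marked cells the Ptprz1 ratio was 0.770. Ptn, the growth factor pleiotrophin that binds Ptprz1 and is counted with the growth factors, not in this sum, was among the most abundant transcripts, at 13037 and 8601 CPM (0.660, 0.653 to 0.666). Sparcl1, which promotes synapse formation, had a ratio of 0.726 (0.711 to 0.740).

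Cholesterol synthesis genes were lower at several steps. Of 41 measured genes of cholesterol and lipoprotein metabolism, 14 passed 1.5-fold downwards and 2 upwards, and the median log2 ratio was -0.43. Msmo1, a sterol demethylation enzyme, had 2652 UMIs in control and 1551 in Setdb1_cKO astrocytes, or 365 and 208 CPM (0.571, 0.536 to 0.609). Other enzymes of the pathway included Fdps at 0.588 (0.549 to 0.629), Cyp51 at 0.621 (0.585 to 0.659) and Tm7sf2 at 0.468 (0.388 to 0.563). Insig1, which holds the pathway's activator in check, had 665 and 443 UMIs (0.651, 0.576 to 0.735). Srebf2, the transcription factor of the pathway, was level at 1.02 (0.924 to 1.14). Apoe, the main lipid carrier of astrocytes, went from 15425 to 11873 CPM (0.770, 0.763 to 0.777). The count depended on the cells with oligodendrocyte progenitor markers: without them 8 of 39 were lower, with Fdps at 0.670, Cyp51 at 0.687 and Insig1 at 0.771, Insig1 also at 0.674 without ependymal marked cells, and the Msmo1 ratio was 0.426 (0.374 to 0.483) in cells with the markers and 0.648 (0.599 to 0.702) in those without.

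**Figure D4:**
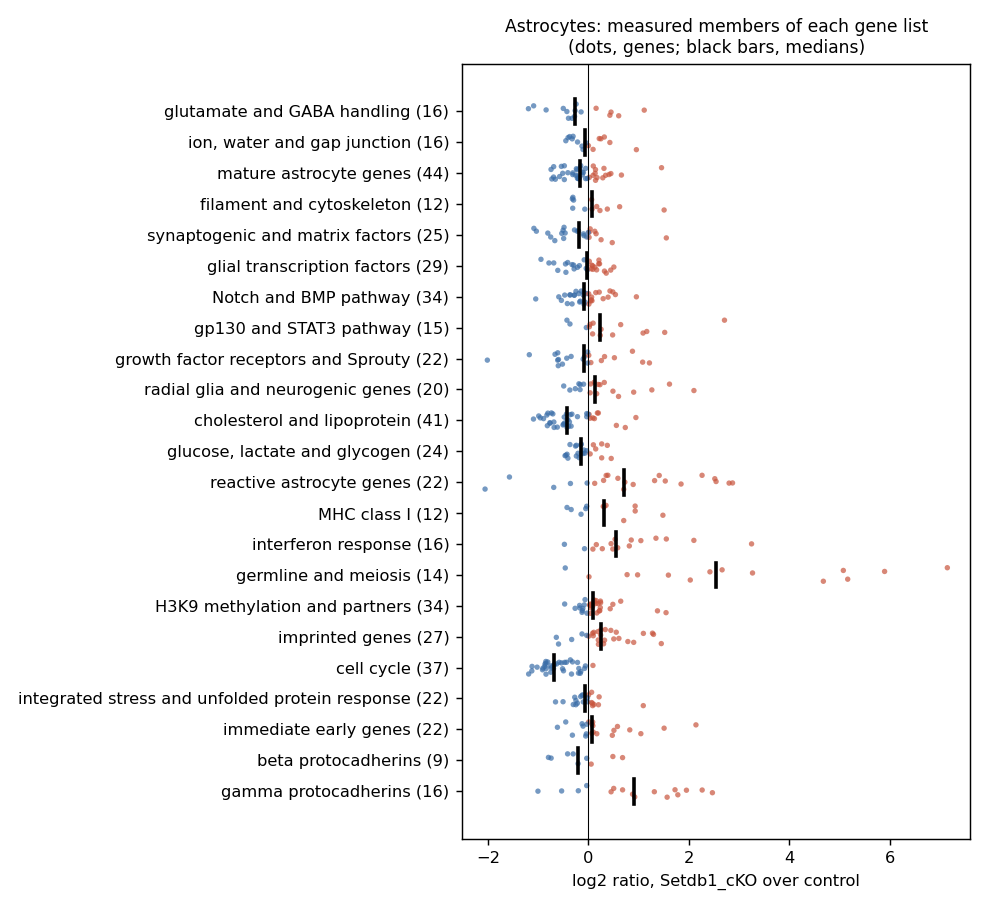
Log2 ratio of Setdb1_cKO over control (x axis, pseudocount 0.5 UMI) for each measured member of the gene lists (y axis, number of measured members in brackets). Dots are genes, red above and blue below 0, spread vertically at random for legibility, and black bars are medians. Germline genes have the highest median at 2.54, and cell cycle and cholesterol genes the lowest at -0.68 and -0.43.

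Of 22 measured growth factor and receptor genes, 7 were at least 1.5-fold lower and 2 higher. This count was not stable: 4 were lower and 3 higher of 20 without oligodendrocyte progenitor marked cells, and 4 were lower and 2 higher both after doublet removal and without cells holding more than 10 neuronal marker UMIs. Hbegf, a ligand of the epidermal growth factor receptor, had 555 and 251 UMIs (0.442, 0.379 to 0.514). The feedback inhibitors Spry2 and Dusp6 of this signalling had ratios of 0.631 (0.533 to 0.746) and 0.654 (0.503 to 0.846). Etv4 and Etv5, transcription factors that respond to fibroblast growth factors, had 0.580 (0.505 to 0.664) and 0.620 (0.528 to 0.726). Without oligodendrocyte progenitor marked cells, Spry2 was at 0.741, Etv4 at 0.685 and Etv5 at 0.701. Ptn was at 0.669 without ependymal marked cells and 0.691 without neuronal marked cells, and Dusp6 at 0.673 without the latter. Igfbp5, which also binds insulin-like growth factors, moved opposite to Igfbp2, from 248 to 576 CPM (2.32, 2.20 to 2.45); without cells carrying oligodendrocyte progenitor markers its ratio was 1.52 (1.42 to 1.62).

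Most transcription factors of a glial list were level. Of its 29 measured factors 26 did not pass 1.5-fold in either direction. The list did not hold Olig1, lower as given above, or Olig2, whose ratio was 0.439. Sox9 stood at 509 and 589 CPM (1.16, 1.11 to 1.21), Sox2 at 569 and 562 (0.987, 0.945 to 1.03) and Nfia at 700 and 679 (0.970, 0.933 to 1.01). Etv4 and Etv5, given above, were among the 3 lower factors; without oligodendrocyte progenitor marked cells 1 of 28 was lower. Of 34 measured Notch and BMP genes, 2 were lower and 1 higher, and the Notch target Hes5 went from 1241 to 990 CPM (0.798, 0.774 to 0.823). Of 20 measured genes of radial glia that the gate did not use, 5 were higher and none lower. Among them Riiad1 had 269 and 844 UMIs (3.07, 2.67 to 3.53) and Lpar1, a lysophosphatidic acid receptor, had 86 and 212 (2.41, 1.87 to 3.13). The gate's own radial glia sum was higher in the same cells, as given above, and its part in these values was not tested.

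A smaller share of Setdb1_cKO astrocytes carried transcripts of dividing cells. Mki67 or Top2a was found in 162 of 1000 control and 95 of 819 Setdb1_cKO cells, and after thinning in 10.3% (8.49 to 12.5) and 5.79% (4.28 to 7.62). Of 37 measured cell cycle genes, 20 were at least 1.5-fold lower and none higher; the median log2 ratio was -0.68. Ccnd2, cyclin D2, had 8040 and 4583 UMIs, or 1105 and 615 CPM (0.557, 0.537 to 0.578). Without the cells with Mki67 or Top2a, 7 of 30 measured cell cycle genes were lower and 2 higher, and the Ccnd2 ratio was 0.548. The gap was smaller where the astrocyte sum had to exceed the radial glia sum more than 2 times. There the median log2 ratio of the list was -0.32. Mki67 was at 0.941 and Top2a at 0.847, against 0.709 and 0.623 in the main gate, while Ccnd2 was at 0.591. Lower values were not confined to astrocytes. In radial glia, gated without Mki67 or Top2a, 13 of 30 measured cell cycle genes were lower (background 5.05%) and 1 higher. Thinned microglia held Mki67 or Top2a in 17.6% (12.7 to 23.5) of control and 12% (8.06 to 17.0) of Setdb1_cKO cells. Their Ccnd2 ratio was 0.317 (0.224 to 0.443).

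A second gate on the same markers, for radial glia, was set beside the astrocytes. It asked for at least 4 radial glia UMIs, more of these than of astrocyte UMIs, and no Mki67 or Top2a, and held 1006 control and 793 Setdb1_cKO cells. At 2-fold, 3.44% of 12079 genes measured there were higher and 1.79% lower. Of 15 germline genes measured in radial glia, 12 were at least 1.5-fold higher (background 6.44%), with the same limit on what was measured, and Mnd1 had a ratio of 33.8 (24.6 to 47.8) there. Setdb1 had 0.379 (0.304 to 0.470). Of 39 cholesterol genes measured in radial glia 0 were lower (background 5.05%), and the Msmo1 ratio was 0.819 (0.764 to 0.877), an interval apart from that of astrocytes. Ncan had 0.571 in astrocytes and 1.08 (1.03 to 1.13) in radial glia, Ptn 0.660 and 0.960 (0.947 to 0.973), Ednrb 0.634 and 1.001 (0.911 to 1.10), and Slc7a10 0.437 and 1.03 (0.795 to 1.33). The Ednrb fall was not particular to astrocytes, since its ratio in microglia was 0.584 (0.467 to 0.729). In microglia Etv5 had 62 and 48 UMIs (0.562, 0.377 to 0.833) and Hes5 had 31 and 20 (0.468, 0.253 to 0.848). Ptn there had 73 and 84 UMIs (0.835, 0.603 to 1.16) and Ncan had 17 and 48 (2.05, 1.16 to 3.80). Since microglia also serve as a measure of free RNA, these low counts need not be their own transcripts. The part of free RNA was not tested. Apoe was lower in astrocytes at 0.770 and higher in radial glia at 1.37 (1.35 to 1.40), and Glul likewise at 0.798 and 1.70 (1.57 to 1.84). Slc6a11 and Kcnmb4 were lower in both, at 0.470 and 0.476 (0.417 to 0.544) for Slc6a11 and at 0.433 and 0.419 (0.355 to 0.493) for Kcnmb4. For the pairs named as apart, the 2 counting intervals do not overlap, but no test between cell types was possible with 1 library per genotype. In the Setdb1_cKO library each gate held more of most of the other's marker genes. From control to Setdb1_cKO, radial glia went from 152 to 273 CPM for Aqp4 and from 146 to 144 for Slc4a4. Astrocytes went from 27.4 to 66.9 CPM for Gdf10. The astrocyte gate also kept cells with Mki67 or Top2a. Gate make-up and cell type response therefore cannot be told apart.

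**Figure D5:**
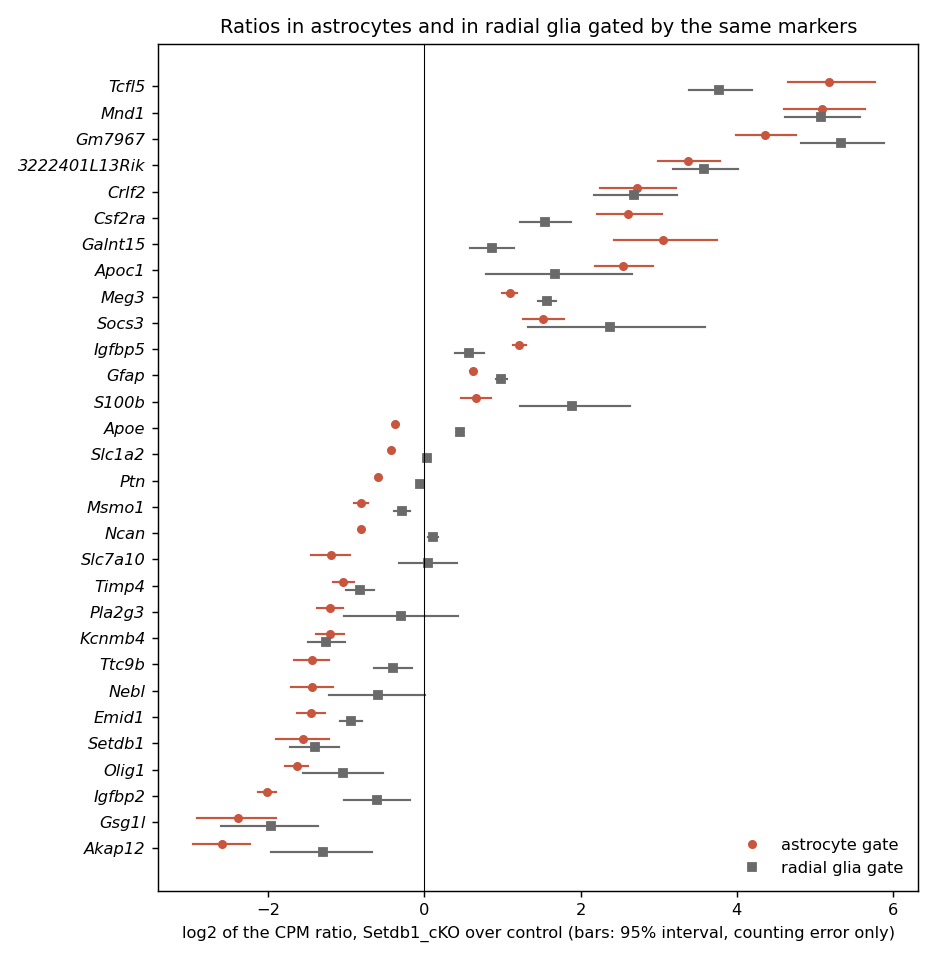
Ratio of Setdb1_cKO over control (x axis, log2 of the CPM ratio) for selected genes (y axis) in the astrocyte gate (red circles) and the radial glia gate (grey squares), with bars for the 95% interval of counting error. Mnd1, Crlf2, Setdb1 and Kcnmb4 have overlapping bars, while Ncan, Ptn, Slc1a2 and Apoe lie below 0 in astrocytes and near or above 0 in radial glia.

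A few genes with large ratios came from few cells. Gjc3, a connexin gene, had 17 UMIs in control and 158 in Setdb1_cKO astrocytes (9.08, 5.49 to 16.0), and 65.2% of the 158 came from 10 cells. Cd74, the MHC class II invariant chain, had 19 and 162 (8.33, 5.17 to 14.2), and 61.1% came from 10 cells. Cldn5, a tight junction protein of endothelium, had 382 and 167 UMIs, of which 270 and 152 lay in 1 cell of each library. Its ratio was 1.31 without oligodendrocyte progenitor marked cells and 1.48 without ependymal marked cells. Apoc1, an apolipoprotein, had 73 and 436 UMIs (5.84, 4.55 to 7.58). It was less concentrated than Gjc3 and Cd74: 186 Setdb1_cKO astrocytes held it, and 131 of the 436 UMIs came from 10 cells. Microglia also held more Apoc1 in the Setdb1_cKO library, with 70 UMIs in control and 319 in Setdb1_cKO (3.31, 2.55 to 4.35). The part of RNA from other cells in the astrocyte value was not tested. By contrast with Gjc3, Galnt15, a glycosyltransferase, had 23 and 196 UMIs (8.33, 5.39 to 13.4), and the 10 richest cells gave 14.3% of the 196. In the lower direction, the 10 richest control cells gave 6.72% of Igfbp2 UMIs and 20.4% of Akap12 UMIs.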

How the data were processed

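The deposited UMI counts per gene and cell, one filtered matrix per library, came from the authors' Cell Ranger 7.1.0 run, per the file headers. The submitters' processing notes name mm10 and Seurat; for other steps, and any doublet removal before deposit, nothing is given in the sources used here. The counts were used as deposited, 82393428 UMIs in 14397 control and 87845965 in 12060 Setdb1_cKO barcodes. Gene positions come from GENCODE vM21 (GRCm38), which matched 32235 of 32285 gene identifiers.

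UMIs were summed over the gated cells of each library and divided by all UMIs of those cells (CPM). Ratios carry exact conditional Poisson intervals at 95% and shares exact Clopper-Pearson intervals; both cover counting error only. Fitted log2 ratios used a pseudocount of 0.5 UMI. A gene was measured at 30 UMIs or more over both libraries, and a ratio against 0 used a floor of 3 UMIs. Detection was compared in cells thinned to 2000 UMIs, which left out 43 control and 7 Setdb1_cKO gated cells. Named were the 15 highest and 15 lowest genes with at least 20 CPM by the bound nearest to 1, leaving out sex-linked, mitochondrial, ribosomal and haemoglobin genes, plus list members by level or by a ratio of 1.5-fold, of which the text gives a selection; other genes are said to be chosen after their values were seen. Members and gene lists were chosen with earlier results of these data known. Doublets were kept, and removed with Scrublet in scanpy 1.11.5 as an alternative (74 control and 83 Setdb1_cKO gated cells). The calculation was tested on simulated Poisson counts with known ratios. These follow the same model as the intervals and hold no added spread between cells or animals, so they check the calculation only. It used numpy 2.4.6, scipy 1.17.1 and pandas 2.3.3. A few list members are counted in their lists and not reported here by name.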

Additional observations from a re-analysis of the deposited data

How the results depend on the processing

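No paired analysis was possible because each genotype is 1 library. For the same reason leaving out a replicate could not be run. The share ratio of the astrocyte gate, 0.939, became 0.750 with an astrocyte sum more than 2 times the radial glia sum, 0.779 with the gate on thinned cells, 0.831 with at least 2000 UMIs and at most 5% mitochondrial UMIs, and 1.39 without cells carrying oligodendrocyte progenitor markers. The 670 higher genes became 434 under that stricter quality limit, 149 without cells holding 3 or more UMIs of other types, 254 at a minimum of 100 UMIs and 1195 at 1.5-fold. The 155 lower genes became 69 without cells of other types, 63 at 100 UMIs and 509 at 1.5-fold. Fewer cells or genes remain under all of these but the last.

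Some log2 ratios changed sign, and the cause was not tested. On the thinned gate Cp was -0.77. Without cells holding 3 or more UMIs of other types, Cd74 was -1.04, Cldn5 0.59, Dusp6 1.01, Etv4 0.041, Stat2 -0.91 and the interferon median -0.65. Without ependymal-marked cells, Tm4sf1 was -0.35, Cp -0.81 and Cldn5 0.57. Without cells carrying oligodendrocyte progenitor markers, Cldn5 was 0.39 and Olig2 0.44. Olig2 is itself a marker of that removal, and Cldn5 a marker of the removal of other types. The Olig2 value and the Cldn5 value of 0.59 are therefore shaped by the removal itself. The 3 removals of marked cells (ependymal, neuronal, oligodendrocyte progenitor) were chosen after seeing the data. With 1 library per genotype, depth limits only the counting error, and the spread between animals is unknown.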
